A study of Caenorhabditis elegans with 12 samples.

Results

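The genes described here are 38 genes of Caenorhabditis elegans with known roles in meiotic chromosomes or in germ cells, chosen by name from a list. They cover sister chromatid cohesion, the chromosome axis, the synaptonemal complex, chromosome pairing, the making and repair of DNA breaks, germ granules, and the switch of germline stem cells to meiosis. A single-symbol probe set was found by name for 36 of them, among 17118 genes with such a probe set, and where a gene had several, the probe set with the highest mean over 12 arrays was used. A log2 value of at least 4 on 3 or more arrays was reached by 35 of the 36, on all 12 arrays in each case, and these 35 were tested among 10365 genes. Those left untested were chk-2, a kinase needed for pairing and break formation, whose values lay between 2.21 and 2.44, close to the lowest on the arrays, and rad-54 and lag-3, which were not found under those symbols. The probe set named rad-54.L had means of 6.15, 6.19, 6.12 and 6.18 in crh-1 null, tax-6 null, aak-2 o/e and WT and was not called in any comparison. Its value was identical, at 6.17665, on each WT array and on aak-2 o/e replicate 3, and why was not tested. The probe set of sel-8 stood at 2.11 on every array. Both are given outside the counts, because the sources used here do not tie these names to the listed ones.

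Whole-animal RNA was measured on Affymetrix arrays in 4 strains with 3 pools of 3000 animals each, frozen as L4 larvae, the stage that precedes the adult. crh-1 null carried the allele nn3315 of crh-1, the worm's gene for the transcription factor CREB. The strain tax-6 null was RB1667 with the allele ok2065 of tax-6, which encodes the catalytic subunit of the phosphatase calcineurin. aak-2 o/e was strain AGD383, made in N2, whose transgene uthIs202 drives residues 1 to 321 of the kinase AAK-2, one of the worm's catalytic AMPK subunits, fused to Tomato, from the aak-2c promoter with the unc-54 3' UTR and the marker rol-6. One label field of those 3 samples reads aak-2 null. WT was the laboratory strain N2. Pools of 1 strain were prepared on separate days and were frozen at times that allowed for strain differences in development, per the labels. The study's title sets AMPK, calcineurin, CRTC-1 and CREB in longevity, and each altered strain was set against WT and against the other two.

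In the hermaphrodite gonad, germ cells divide at the distal end, enter meiosis as they move away from it, and become sperm during L4 and oocytes in the adult. In meiotic prophase, cohesin and HORMA-domain axis proteins organise each chromosome, homologues pair through zinc-finger proteins at pairing centres, the synaptonemal complex joins them, and programmed DNA breaks are repaired into crossovers. Germ granules, called P granules in this worm, are bodies of RNA and protein around germ nuclei, built on PGL proteins and Vasa-related GLH helicases. In RNA from whole animals, fewer germ cells and less RNA per germ cell cannot be told apart.

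The array of tax-6 null replicate 1 stood apart for these genes, though not for these alone. Its median over the 35 members lay 0.53 below the mean of the strain's other 2 arrays on the log2 scale. Of the 35 members 29 lay below both of those arrays and 3 above both. Over all 10365 genes the median lay 0.003 below, with 4399 genes below both arrays and 4298 above both. Of 27 body wall muscle genes 20 lay below both and 4 above, and of 42 sperm genes 11 below and 25 above. The lowest correlation between arrays of a strain was 0.99 in tax-6 null and 0.996 to 0.997 in the others. For tax-6 null replicates 2 and 3, 3279 and 2496 of all genes lay below both other arrays and 3541 and 2373 above. Over all genes, too, replicate 1 was thus most often the outermost array. The median SD between the 3 arrays of a strain was 0.10 for members and 0.13 for all genes in crh-1 null, 0.31 and 0.21 in tax-6 null, 0.24 and 0.18 on aak-2 o/e arrays, and 0.11 and 0.12 in WT. All strains share 1 estimate of spread per gene in the test, so that array enters every comparison, and the counts are given with and without it. In crh-1 null the crh-1 probe set was higher than in WT (log2 change 1.46 ± 0.15, adjusted p = 1.57e-05 by limma), that of tax-6 lay under 4 in mean in all 4 strains, and that of aak-2 was not called in aak-2 o/e (-0.41 ± 0.19, adjusted p = 0.126). Where these probes lie relative to the alleles and the transgene was not known here, so they check the labels only in part. A pair of markers of the change from L4 to adult differed between strains: the adult collagen col-19 was higher by 7.63 in tax-6 null and by 5.36 in aak-2 o/e (adjusted p = 9.11e-09 and 5.34e-07) and not called in crh-1 null (-0.34, adjusted p = 0.58), and the yolk protein gene vit-2 was higher by 2.78 and 3.67 in the same strains (adjusted p = 3.03e-06 and 7.46e-07) and not called in crh-1 null (-0.29, adjusted p = 0.501). Other stage genes ran against this: the yolk protein gene vit-1 fell by 2.66 in tax-6 null (adjusted p = 3.67e-06). Of 14 genes tied to developmental stage 4 were higher and 7 lower in tax-6 null. In crh-1 null 9 of these 14 were called by limma, all lower, so col-19 and vit-2 do not stand for the list there. Among the 9 were col-49 (log2 change -3.27, adjusted p = 5.13e-08) and mlt-10 (-2.57, adjusted p = 7.97e-07).

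**Figure D1:**
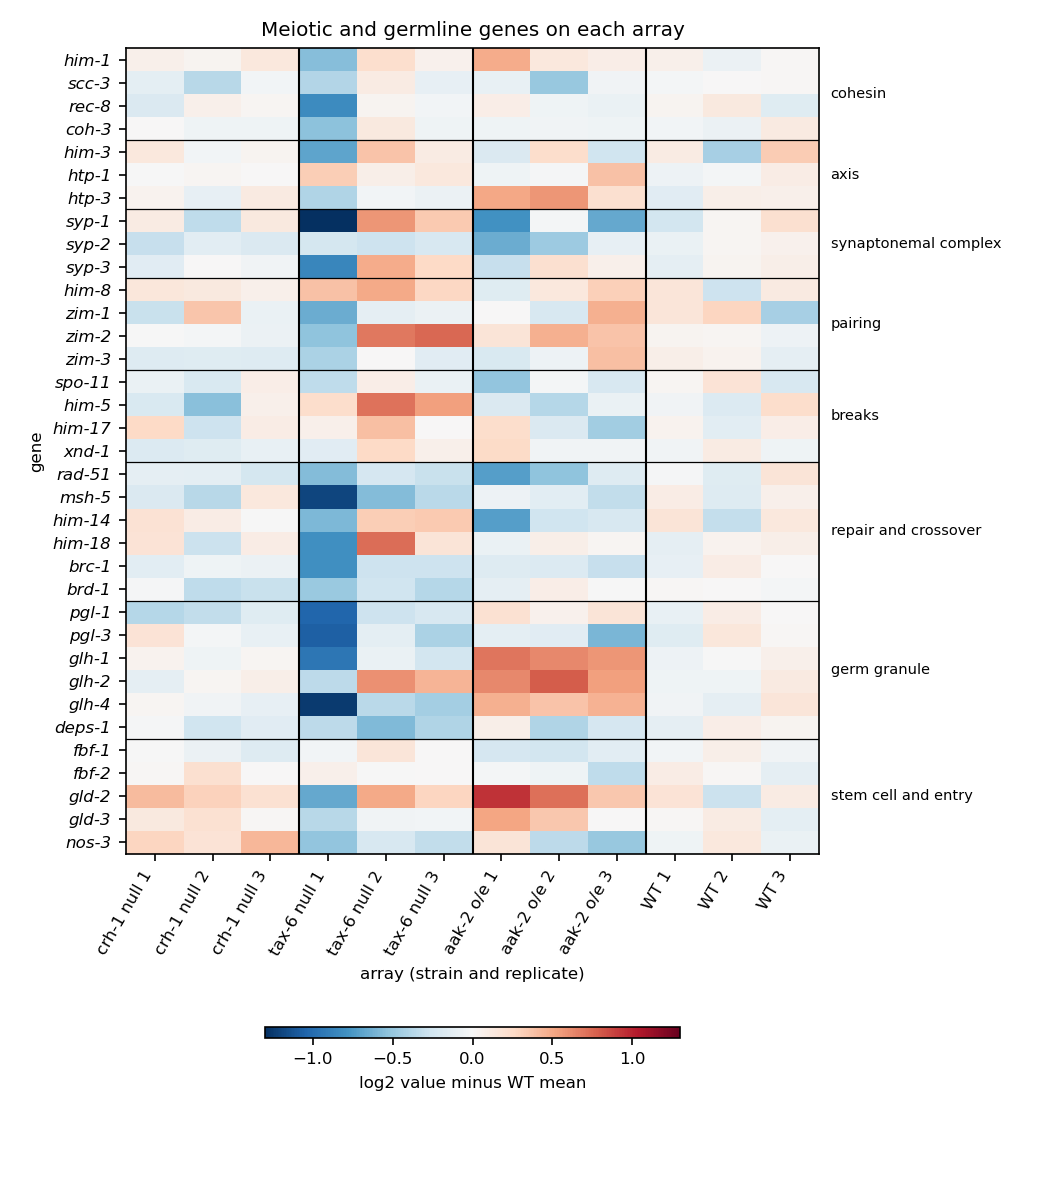
Heat map of the 35 tested members (rows, by role) on the 12 arrays (columns, by strain and replicate), coloured by the deposited log2 value minus the gene's WT mean. The column of tax-6 null replicate 1 is the darkest blue, and glh-1, glh-2 and glh-4 are red on all 3 aak-2 o/e arrays.

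A gene was called when its Benjamini-Hochberg adjusted p from limma was under 0.05. Differences are log2 values of the altered strain minus WT, given as the change ± SE with 3 arrays a strain. Across the 3 comparisons with WT, 12 of the 35 members were called, 0 of them in more than 1 comparison, and 14 were called in at least 1 of the 6 comparisons. The 3 comparisons with WT share the WT arrays, so they are not independent of each other.

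In crh-1 null, 0 of 35 members were called, against 20.6% of all genes tested, 9.88% higher and 10.7% lower. By limma, 0 of 35 had an unadjusted p under 0.05, and the count stayed at 0 under every alternative setting and with each array left out. The changes ran from -0.28 for pgl-1 to 0.31 for gld-2, with a median of -0.03, beside -0.01 over all genes. The 95% interval of the change lay within 2-fold for each of the 35 members, at most from -0.94 to 0.88 for syp-1, and within 0.5 on the log2 scale for 21 of them. The crh-1 null and WT arrays did not overlap for 7 of 35 members, beside 43% of all genes. These were scc-3, syp-2, zim-3, xnd-1 and pgl-1, with the lower values in crh-1 null, and gld-2 and nos-3, with the higher values there.

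In tax-6 null, 7 of 35 members were called against WT, 1 higher and 6 lower, against 45% of all genes, 18.7% higher and 26.3% lower. The member that rose was him-5, which promotes breaks on the X chromosome. Those that fell were the crossover gene msh-5, the ubiquitin ligase pair brc-1 and brd-1, and the germ granule genes pgl-1, glh-4 and deps-1. The median change over the 35 members was -0.15, beside -0.09 over all genes, and 0.00 beside -0.06 without tax-6 null replicate 1. Without that array 8 members were called, 3 higher and 5 lower, against 46.4% of all genes. Of the 7 called with all arrays, 6 were still called in the same direction (pgl-1 was not), and zim-2 and glh-2 were called higher. In aak-2 o/e, 5 of 35 members were called against WT, 3 higher and 2 lower, against 33.5% of all genes, 14.2% higher and 19.3% lower. The axis gene htp-3 and the helicase genes glh-1 and glh-2 rose, and the synaptonemal complex gene syp-2 and the recombinase gene rad-51 fell. The median change over the 35 members was -0.02, beside -0.15 over all genes. Without tax-6 null replicate 1 the same 5 members were called and zim-2, glh-4 and gld-2 were called higher as well, which made 8, against 42.4% of all genes. The count in tax-6 null was 3 without WT replicate 2 or 3, and it was split 2 higher and 5 lower with quantile normalization and 0 higher and 9 lower with arrays centred on their medians. The count in aak-2 o/e was 0 without WT replicate 1, 2 without WT replicate 2 or 3, and 1 with replicate 1 or 2 of aak-2 o/e left out. Without aak-2 o/e replicate 1 all 5 calls ended, and the 1 called was nos-3, lower (adjusted p = 0.0378, limma). Without aak-2 o/e replicate 2 it was glh-1.

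**Figure D2:**
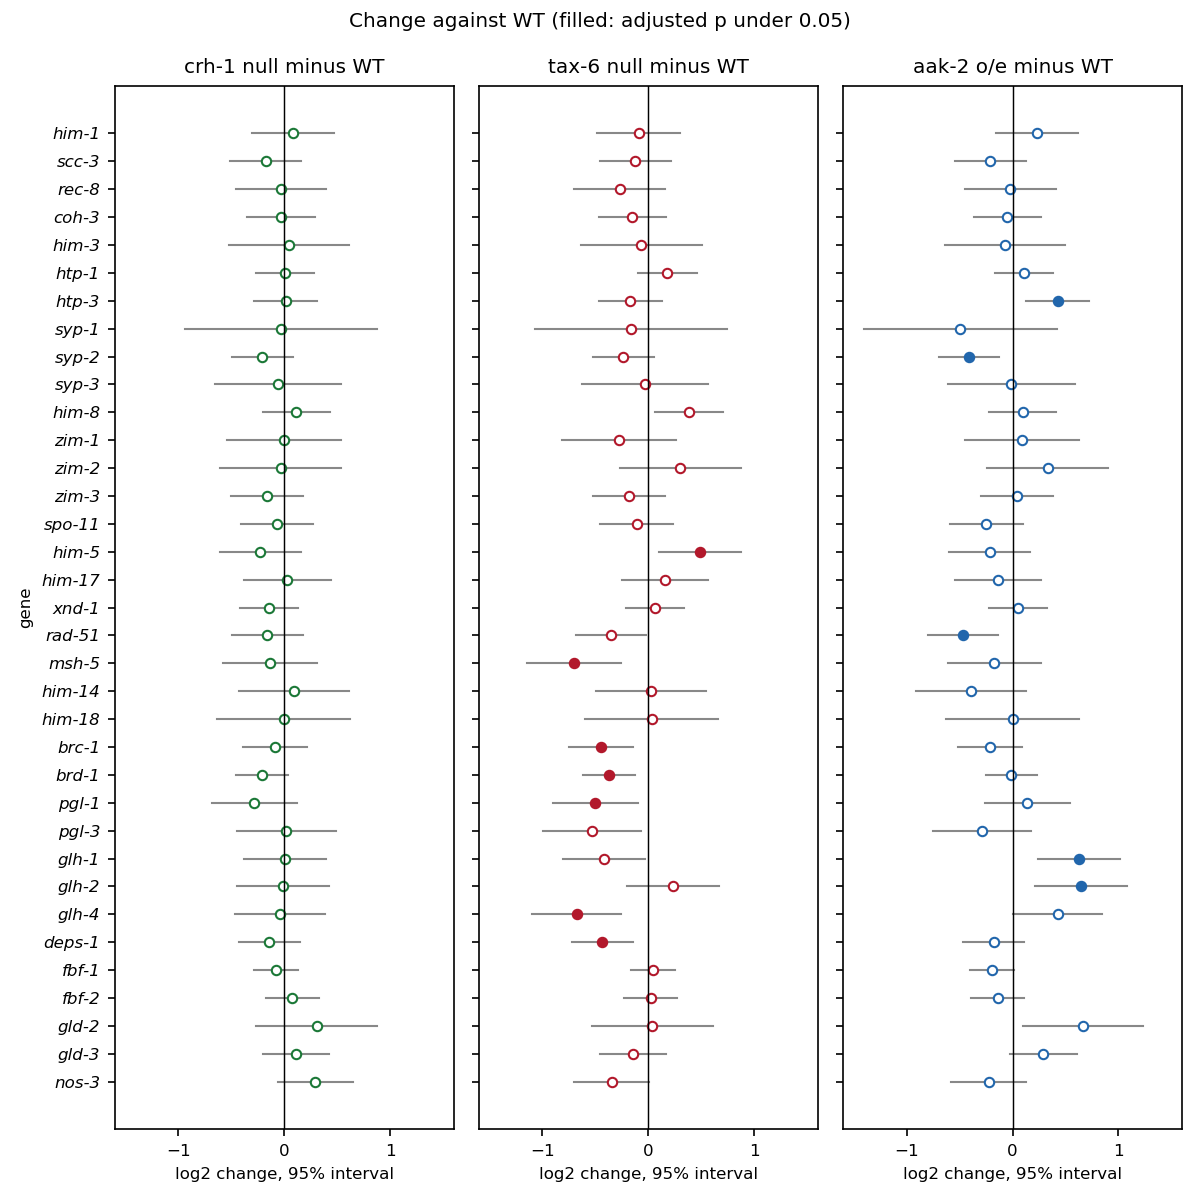
Log2 change against WT of each tested member (rows, by role) with its 95% interval in each altered strain (panels, crh-1 null, tax-6 null, aak-2 o/e). Filled points are the 0, 7 and 5 members with an adjusted p under 0.05.

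Among the 4 cohesin genes none was called in any of the 6 comparisons. him-1 encodes the SMC-1 subunit shared by all cohesin rings, scc-3 a subunit shared by meiotic rings, and rec-8 and coh-3 the kleisins that close meiotic cohesin. Their changes against WT ran from -0.18 to 0.08 in crh-1 null, from -0.27 to -0.09 in tax-6 null and from -0.21 to 0.23 in aak-2 o/e. coh-3 had the same value, 5.21074, on crh-1 null replicate 3, tax-6 null replicate 3 and aak-2 o/e replicates 1 and 3. Why it repeats was not tested, so the lack of a call for coh-3 is not read as steady expression. On the tax-6 null arrays rec-8 had 7.57, 8.43 and 8.36, against 8.42, 8.51 and 8.23 in WT. Replicate 1 alone lay below the WT arrays, and the other tax-6 null arrays lay within their range.

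The axis genes him-3, htp-1 and htp-3 encode HORMA-domain proteins that line meiotic chromosomes. him-3 and htp-1 were called in none of the 6 comparisons, with changes against WT between -0.07 and 0.18. htp-3 had log2 values of 8.58, 8.43 and 8.66 in crh-1 null, 8.15, 8.50 and 8.47 in tax-6 null, 9.04, 9.12 and 8.75 on aak-2 o/e arrays, and 8.40, 8.62 and 8.61 in WT. Every aak-2 o/e array lay above every array of the other strains. The rise in aak-2 o/e was 0.43 ± 0.14, or 1.35-fold (adjusted p = 0.0317, limma). That call ended without any 1 of 5 arrays, WT replicates 1, 2 and 3 (adjusted p = 0.119, 0.0507 and 0.0554) and aak-2 o/e replicates 1 and 2 (0.0894 and 0.105), and with no filter (0.0561). In the direct contrast htp-3 was lower in tax-6 null than in aak-2 o/e by 0.60 ± 0.14 (adjusted p = 0.00314), and that call held under every setting and with each array left out. It was also lower in crh-1 null than in aak-2 o/e (-0.41 ± 0.14, adjusted p = 0.0277), a call that ended without any 1 of 4 arrays, crh-1 null replicates 1 and 2 and aak-2 o/e replicates 1 and 2 (adjusted p = 0.0582 to 0.0998).

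The synaptonemal complex genes syp-1, syp-2 and syp-3 encode proteins of its central region, which depend on each other for assembly. syp-2 had log2 values of 8.80, 8.97 and 8.92 in crh-1 null, 8.88, 8.83 and 8.90 in tax-6 null, 8.45, 8.63 and 8.99 on aak-2 o/e arrays, and 9.02, 9.13 and 9.16 in WT. The 3 WT arrays were the highest of the 12, and aak-2 o/e replicate 3 lay just under them while the other aak-2 o/e arrays were the lowest. syp-2 fell by 0.41 ± 0.13 in aak-2 o/e (adjusted p = 0.0308, limma), with the same sign and no call in crh-1 null (-0.21, adjusted p = 0.338) and tax-6 null (-0.24, adjusted p = 0.167). The call ended without any 1 of 5 arrays, all but aak-2 o/e replicate 3 among those of aak-2 o/e and WT (adjusted p = 0.0502 to 0.109), and in a fit of only aak-2 o/e and WT (adjusted p = 0.0779). syp-1 had 7.66, 9.64 and 9.41 in tax-6 null, 8.28, 9.04 and 8.40 on aak-2 o/e arrays, and 8.83, 9.09 and 9.28 in WT. Its tax-6 null arrays lay on both sides of the WT range, and its interval, -1.40 to 0.42 in aak-2 o/e, includes falls of more than 2-fold. Without tax-6 null replicate 1, syp-1 was called higher in tax-6 null than in aak-2 o/e (0.95, adjusted p = 0.0053), where all arrays gave 0.33 (adjusted p = 0.547).

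The pairing genes encode zinc-finger proteins that bind pairing centres, him-8 on the X chromosome and zim-1, zim-2 and zim-3 on autosomes. In WBcel235 the 4 genes lie next to each other on chromosome IV, with 0 genes between neighbours. None of the 4 was called in the 6 comparisons. him-8 had 7.91, 8.02 and 7.79 in tax-6 null, against 7.68, 7.25 and 7.64 in WT. The tax-6 null arrays were all above the WT arrays, with a change of 0.38 ± 0.15 just short of the threshold (adjusted p = 0.0509). It was called without WT replicate 1 (adjusted p = 0.0459) or aak-2 o/e replicate 1 or 3 (0.0309 and 0.0438) and with quantile normalization (0.0312). zim-2 had 6.61, 6.58 and 6.54 in crh-1 null, 6.09, 7.29 and 7.36 in tax-6 null, 6.77, 7.07 and 6.99 on aak-2 o/e arrays, and 6.65, 6.64 and 6.54 in WT. Its values were chosen for printing after they were seen, because tax-6 null replicate 1 lay lowest of all 12 arrays and the other tax-6 null arrays highest. With all arrays its change in tax-6 null was 0.30 (adjusted p = 0.38), and without replicate 1 it was 0.71 (adjusted p = 0.000262). The neighbours zim-1 and zim-3 had changes of -0.28 and -0.19 in tax-6 null and 0.09 and 0.04 in aak-2 o/e, and crh-1 null gave 0.11 for him-8 and -0.16 to -0.00 for the zim genes.

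Of the 4 genes for the making of breaks, spo-11 encodes the enzyme that cuts DNA, and him-17, xnd-1 and him-5 encode chromatin-associated proteins that set where and how often it does. him-5 had log2 values of 6.25, 5.90 and 6.51 in crh-1 null, 6.67, 7.15 and 6.97 in tax-6 null, 6.26, 6.07 and 6.35 on aak-2 o/e arrays, and 6.39, 6.26 and 6.67 in WT. tax-6 null held the highest arrays, and only its replicate 1 was level with the highest WT array. Against WT the rise in tax-6 null was 0.49 ± 0.18, or 1.40-fold (adjusted p = 0.0417). This call ended without any 1 of 6 arrays, WT replicates 1 and 2, tax-6 null replicates 2 and 3, and replicate 1 of both crh-1 null and aak-2 o/e, with adjusted p between 0.0524 and 0.144. It also ended with no filter (0.0968), with median centring (0.0521) and in a fit of only these 2 strains (0.0638). The contrasts of tax-6 null with the other altered strains held under every setting and with each array left out. him-5 was higher in tax-6 null than in aak-2 o/e by 0.71 ± 0.18 (adjusted p = 0.00569) and lower in crh-1 null than in tax-6 null (-0.71 ± 0.18, adjusted p = 0.00769). The other 3 break genes were not called, with changes against WT between -0.25 and 0.15.

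Of the 6 repair and crossover genes, 3 were called in tax-6 null, all lower, a share close to the 45% of all genes called there. msh-5 encodes a meiotic MutS protein that acts with the product of him-14 to make crossovers. It had log2 values of 6.31, 6.13 and 6.63 in crh-1 null, 5.29, 5.92 and 6.14 in tax-6 null, 6.43, 6.36 and 6.17 on aak-2 o/e arrays, and 6.59, 6.32 and 6.56 in WT. All tax-6 null arrays lay below all WT arrays, with replicate 1 the lowest. The fall in tax-6 null was -0.70 ± 0.20, a level 1.63-fold lower (adjusted p = 0.0139), and the call held with each array left out but ended in a fit of only these 2 strains (0.0532). Without tax-6 null replicate 1 the change was -0.46 (adjusted p = 0.0343). The second msh-5 probe set had the same sign and was not called (-0.45, adjusted p = 0.151). The contrasts of tax-6 null with aak-2 o/e (-0.53, adjusted p = 0.0466) and of crh-1 null with tax-6 null (0.57, adjusted p = 0.0439) were called, and each ended without any 1 of 9 or 10 arrays (adjusted p up to 0.16 and 0.162), tax-6 null replicate 1 among them. Both also ended with no filter (0.113 and 0.113), only the 2 strains (0.111 and 0.132), array weights (0.199 and 0.0931) and the mean of the gene's probe sets (0.0752 and 0.0988). With the replicate number as a block they ended as well (0.0575 and 0.0561). him-14 itself was not called, with changes against WT of 0.09 in crh-1 null, 0.03 for tax-6 null and -0.39 for aak-2 o/e.

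brc-1 and brd-1, the worm counterparts of BRCA1 and BARD1, encode partners in a ubiquitin ligase that acts in break repair. brc-1 had 6.66, 6.74 and 6.71 in crh-1 null, 5.99, 6.52 and 6.52 in tax-6 null, 6.63, 6.61 and 6.49 on aak-2 o/e arrays, and 6.69, 6.89 and 6.80 in WT. brd-1 had 7.67, 7.36 and 7.40 in crh-1 null, 7.21, 7.42 and 7.31 in tax-6 null, 7.56, 7.77 and 7.68 on aak-2 o/e arrays, and 7.70, 7.69 and 7.66 in WT. For both genes every tax-6 null array lay below every WT array. brc-1 fell by 0.45 ± 0.14 (adjusted p = 0.0207) and brd-1 by 0.37 ± 0.11 (adjusted p = 0.0185) in tax-6 null, and without its replicate 1 by 0.27 (adjusted p = 0.04) and 0.32 (adjusted p = 0.0453). The second brc-1 probe set was called lower too (-0.45, adjusted p = 0.0407). The brc-1 call ended without WT replicate 2 or 3 (adjusted p = 0.0725 and 0.0544) and in a fit of only the 2 strains (0.0826), and the brd-1 call without WT replicate 1 (0.0538). brd-1 was also lower in tax-6 null than in aak-2 o/e (-0.36, adjusted p = 0.0192), a call that ended without replicate 2 of aak-2 o/e (0.0683) and in a fit of only these 2 strains (0.0544).

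rad-51 encodes the recombinase that carries out strand exchange. It had log2 values of 8.81, 8.81 and 8.70 in crh-1 null, 8.37, 8.71 and 8.65 in tax-6 null, 8.22, 8.41 and 8.77 on aak-2 o/e arrays, and 8.92, 8.78 and 9.10 in WT. The aak-2 o/e and tax-6 null arrays lay below the WT arrays, with aak-2 o/e replicate 3 just under the lowest of them. The fall in aak-2 o/e was -0.47 ± 0.15, a level 1.38-fold lower (adjusted p = 0.0348), and the change in tax-6 null was -0.36 (adjusted p = 0.077). The aak-2 o/e call ended without WT replicate 1 or 3 (adjusted p = 0.0795 and 0.125) or aak-2 o/e replicate 1 or 2 (0.13 and 0.0879). It also ended with no filter (0.0723) and in a fit of only these 2 strains (0.0724). him-18, a scaffold for nucleases that resolve recombination intermediates, was not called, with changes against WT between -0.00 and 0.03.

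**Figure D3:**
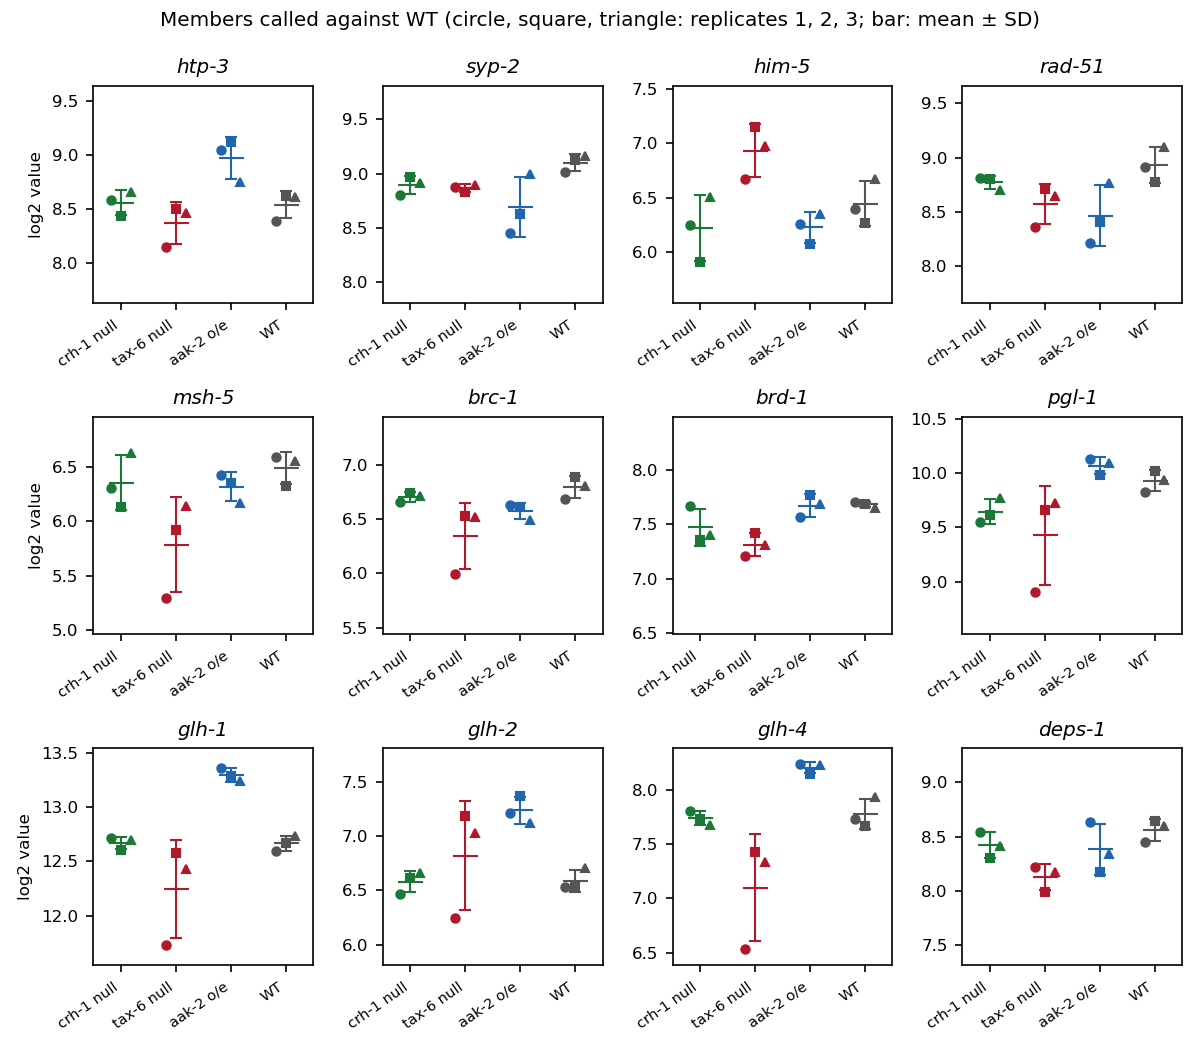
Log2 value on each array (vertical axis, scaled separately for each gene) of the 12 members called against WT, by strain. Circles, squares and triangles are replicates 1, 2 and 3, and bars give mean ± SD (n = 3). The 3 aak-2 o/e points of glh-1 lie above all others, and tax-6 null replicate 1 lies below the other points for htp-3, msh-5, brc-1, brd-1, pgl-1, glh-1, glh-2 and glh-4.

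Of the 6 germ granule genes, 3 were called in tax-6 null, all lower, and 2 were called in aak-2 o/e, both higher, shares close to the 45% and 33.5% of all genes called in these strains. glh-1 encodes a Vasa-related DEAD-box helicase of P granules. It had log2 values of 12.71, 12.60 and 12.69 in crh-1 null, 11.73, 12.58 and 12.43 in tax-6 null, 13.36, 13.28 and 13.24 on aak-2 o/e arrays, and 12.60, 12.66 and 12.73 in WT. All aak-2 o/e arrays lay above, and all tax-6 null arrays below, every WT array. In aak-2 o/e glh-1 rose by 0.63 ± 0.18, or 1.55-fold (adjusted p = 0.0177), and the change in tax-6 null was -0.42 ± 0.18 (adjusted p = 0.0737). The second glh-1 probe set was called both ways, at 0.56 in aak-2 o/e (adjusted p = 0.0351) and -0.54 in tax-6 null (adjusted p = 0.0312). The aak-2 o/e call of the first ended without WT replicate 1 (adjusted p = 0.0596) or aak-2 o/e replicate 1 (0.0567) and with no filter (0.0513). In the direct contrast glh-1 was lower in tax-6 null than in aak-2 o/e by 1.05 ± 0.18, or 2.07-fold (adjusted p = 0.000362), with -1.10 from the second probe set (adjusted p = 0.000323). It held under every setting and with each array left out, and without tax-6 null replicate 1 it was -0.79 (adjusted p = 3.92e-05). glh-1 was also lower in crh-1 null than in aak-2 o/e (-0.62 ± 0.18, adjusted p = 0.0131), a call that ended only at a threshold of 0.01.

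glh-4, another helicase of this family, had log2 values of 7.80, 7.73 and 7.67 in crh-1 null, 6.53, 7.43 and 7.33 in tax-6 null, 8.24, 8.15 and 8.23 on aak-2 o/e arrays, and 7.73, 7.66 and 7.93 in WT. As for glh-1, the aak-2 o/e arrays were the highest and the tax-6 null arrays the lowest, with no overlap with WT on either side. In tax-6 null it fell by 0.68 ± 0.19 (adjusted p = 0.0136, but 0.0543 without WT replicate 3 and 0.0769 in a fit of only the 2 strains), and by 0.39 without tax-6 null replicate 1 (adjusted p = 0.0104). In aak-2 o/e the change was 0.43 (adjusted p = 0.115) with all arrays, and it was called without tax-6 null replicate 1 (adjusted p = 0.00442) and in a fit of only aak-2 o/e and WT (0.0192). Set against aak-2 o/e, the change in tax-6 null was -1.10 ± 0.19, or 2.15-fold lower in tax-6 null (adjusted p = 0.000486). It held under every setting and with each array left out, and was -0.82 without tax-6 null replicate 1. glh-4 was higher in crh-1 null than in tax-6 null (0.64 ± 0.19, adjusted p = 0.0224, but 0.0695 and 0.056 without crh-1 null replicate 1 or 2, 0.0657 with no filter and 0.0955 with only the 2 strains). glh-2, the other Vasa-related helicase measured, had 6.47, 6.61 and 6.66 in crh-1 null, 6.25, 7.19 and 7.03 in tax-6 null, 7.22, 7.37 and 7.12 on aak-2 o/e arrays, and 6.53, 6.53 and 6.70 in WT. The aak-2 o/e arrays lay above the WT arrays, and those of tax-6 null lay on both sides of them, replicate 1 below and the others above. In aak-2 o/e glh-2 rose by 0.65 ± 0.20, or 1.57-fold (adjusted p = 0.0263), a call that ended with no filter (adjusted p = 0.0763) or without any 1 of 4 arrays, WT replicates 1 and 2 and aak-2 o/e replicates 1 and 2 (0.0617 to 0.0818). In tax-6 null its change was 0.23 (adjusted p = 0.375) with all arrays and 0.52 without replicate 1 (adjusted p = 0.00369). glh-2 was lower in crh-1 null than in aak-2 o/e (-0.66, adjusted p = 0.0182, but 0.0612 without crh-1 null replicate 1, 0.0621 without replicate 2 of aak-2 o/e and 0.0556 with no filter).

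pgl-1 and pgl-3 encode RNA-binding proteins that build P granules. pgl-1 had log2 values of 9.55, 9.61 and 9.77 in crh-1 null, 8.90, 9.66 and 9.72 in tax-6 null, 10.13, 9.98 and 10.09 on aak-2 o/e arrays, and 9.83, 10.02 and 9.94 in WT. Both null strains lay below all WT arrays, tax-6 null replicate 1 by far the most, and the aak-2 o/e arrays overlapped WT. In tax-6 null pgl-1 fell by 0.50 ± 0.18 (adjusted p = 0.0432), a call that ended without any 1 of 10 arrays, all but tax-6 null replicates 2 and 3 (adjusted p = 0.0534 to 0.121). Without tax-6 null replicate 1 the change was -0.24 (adjusted p = 0.0881). The call also ended with no filter, quantile normalization, array weights or only the 2 strains (adjusted p = 0.103, 0.0569, 0.0875 and 0.134). The contrast of tax-6 null with aak-2 o/e was larger (-0.64 ± 0.18, adjusted p = 0.0122) and held with each array left out. It ended in a fit of only the 2 strains (adjusted p = 0.0653). pgl-3 had 7.48, 8.41 and 8.12 in tax-6 null, against 8.38, 8.68 and 8.55 in WT, and its change of -0.53 was not called (adjusted p = 0.0615). deps-1, whose product supports P granule assembly, had 8.54, 8.30 and 8.41 in crh-1 null, 8.22, 7.99 and 8.17 in tax-6 null, 8.64, 8.17 and 8.34 on aak-2 o/e arrays, and 8.45, 8.64 and 8.59 in WT. It fell by 0.43 ± 0.13 in tax-6 null (adjusted p = 0.0191), where every array lay below every WT array and replicate 1 was the highest of the 3. The deps-1 call ended without WT replicate 2 or 3 or tax-6 null replicate 2 (adjusted p = 0.0657, 0.0559 and 0.0675).

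The 5 stem cell and meiotic entry genes gave 0 calls against WT with all arrays. fbf-1 and fbf-2 encode PUF proteins that keep stem cells, gld-2 a cytoplasmic poly(A) polymerase, gld-3 its partner and nos-3 a Nanos-related protein, which act in the switch to meiosis. The values of nos-3 and gld-3 were chosen for printing after they were seen. nos-3 had log2 values of 8.86, 8.76 and 9.01 in crh-1 null, 8.07, 8.37 and 8.27 in tax-6 null, 8.75, 8.24 and 8.09 on aak-2 o/e arrays, and 8.52, 8.72 and 8.50 in WT. The crh-1 null arrays were the 3 highest of the 12, and the tax-6 null arrays all lay below WT. nos-3 was higher in crh-1 null than in tax-6 null by 0.64 ± 0.16, or 1.56-fold (adjusted p = 0.00852), under every setting and with each array left out. It was also higher in crh-1 null than in aak-2 o/e (0.52 ± 0.16, adjusted p = 0.0216), a call that ended without crh-1 null replicate 1 or 3 or aak-2 o/e replicate 2 or 3 (adjusted p = 0.0501 to 0.0901), with no filter (0.0519), with only the 2 strains (0.0556) and with the mean of the gene's probe sets (0.0974). The second nos-3 probe set was not called in either (0.29 and 0.11, adjusted p = 0.245 and 0.671). gld-3 had 6.89, 6.97 and 6.78 in crh-1 null, 6.41, 6.72 and 6.73 in tax-6 null, 7.27, 7.12 and 6.78 on aak-2 o/e arrays, and 6.78, 6.88 and 6.64 in WT. It was lower in tax-6 null than in aak-2 o/e (-0.44 ± 0.14, adjusted p = 0.0243), with no overlap, and the call ended without tax-6 null replicate 1 (0.0777) or replicate 1 or 2 of aak-2 o/e (0.0928 and 0.07), with array weights (0.0588) and in a fit of only the 2 strains (0.0873). gld-2 changed by 0.67 in aak-2 o/e, the largest value among members there, and was not called (adjusted p = 0.0718). It was called without tax-6 null replicate 1 or 2 (adjusted p = 0.00786 and 0.0498). fbf-1 and fbf-2 were not called by the probe sets used. The second fbf-2 probe set was lower in tax-6 null (-0.35, adjusted p = 0.0349) and aak-2 o/e (-0.48, adjusted p = 0.00963), so the probe sets of this gene disagree.

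Set directly against aak-2 o/e, tax-6 null differed in 8 of 35 members, against 50.1% of all genes, 27.6% higher and 22.4% lower, with him-5 higher in tax-6 null and htp-3, msh-5, brd-1, pgl-1, glh-1, glh-4 and gld-3 lower. It was the only 1 of the 6 comparisons in which members differed at least 2-fold, and these were glh-1 and glh-4. They made 2 of 35 members, beside 24% of all genes. Leaving out tax-6 null replicate 1 brought both under 2-fold, with the lowest change of any member at -0.82. Without tax-6 null replicate 1, 10 members were called, 5 each way, against 50.6% of all genes, and 6 of the 10 were among the 8. With aak-2 o/e replicate 2 left out, 5 members were called. Between crh-1 null and tax-6 null 4 members differed, against 37.9% of all genes, 21.4% higher and 16.6% lower, with msh-5, glh-4 and nos-3 higher and him-5 lower in crh-1 null, and 2 were called without crh-1 null replicate 1. With tax-6 null replicate 1 left out, the directions turned, with 2 members higher and 4 lower in crh-1 null, against 38.9% of all genes. Of these members 3 were called with all arrays too, and the median of all 35 was -0.06 instead of 0.12. There were 5 higher and 1 lower without tax-6 null replicate 2. With median centring they were split 6 higher and 1 lower in crh-1 null. Between crh-1 null and aak-2 o/e 4 members differed, against 46.4% of all genes, 27.4% higher and 19% lower. In crh-1 null nos-3 was higher and htp-3, glh-1 and glh-2 were lower. There 8 members were called without tax-6 null replicate 1 (2 higher, 6 lower), against 52.9% of all genes. Only 1 was called without crh-1 null replicate 1 or with replicate 2 of aak-2 o/e left out. Arrays did not overlap for 10 members in tax-6 null against aak-2 o/e (55.7% of all genes), 10 between crh-1 null and tax-6 null (49.9%), 12 between crh-1 null and aak-2 o/e (60.1%), 11 between tax-6 null and WT (54.5%) and 12 between aak-2 o/e and WT (52.5%). The share of members called was below the share of all genes called in each of the 6 comparisons, with 0 to 22.9% of members and 20.6% to 50.1% of all genes.

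Other germline genes, in lists that leave out the members, were counted in the same way. The lists share some genes, so their counts are not independent. The regulators puf-3 and puf-11 are also in the oocyte and eggshell list, and lin-41 is in that list and the stage list. Of 48 other meiotic chromosome genes, 0 were called in crh-1 null (4 had an unadjusted p under 0.05 by limma), 9 in tax-6 null (3 higher, 6 lower) and 8 in aak-2 o/e (4 each way). In tax-6 null the polo-like kinase gene plk-2, which acts in pairing, fell by 0.40 (adjusted p = 0.011), and the nuclease gene mus-81 rose by 0.51 (adjusted p = 0.0182). In aak-2 o/e lab-1, which protects cohesion in meiosis, rose by 1.74 (adjusted p = 5.49e-05), and dsb-1, needed for breaks, fell by 0.50 (adjusted p = 0.012). The mitotic kleisin gene scc-1 fell by 0.52 in tax-6 null (adjusted p = 0.0162) and rose by 0.61 in aak-2 o/e (adjusted p = 0.00905). Of 21 other germ granule and germline small RNA genes, 0 were called in crh-1 null (0 at an unadjusted p under 0.05), 5 in tax-6 null (1 higher, 4 lower) and 7 in aak-2 o/e (5 higher, 2 lower). The Argonaute gene csr-1 fell by 0.74 in tax-6 null (adjusted p = 0.000796), and the Argonaute genes alg-3, which acts in sperm formation, and prg-1, which binds piRNAs, rose by 2.55 and 0.92 in aak-2 o/e (adjusted p = 4.70e-05 and 0.00775). Of 37 other germline regulators, 5 were called in crh-1 null (1 higher, 4 lower) and 8 in either other strain (5 higher, 3 lower in each). The ribonucleotide reductase gene rnr-1, used in DNA synthesis, fell by 1.20 in crh-1 null (adjusted p = 6.59e-05) and by 1.13 in tax-6 null (adjusted p = 7.18e-05). Other regulators rose, among them fog-1 in tax-6 null (1.26, adjusted p = 0.000669). The change of puf-3 was -0.78 in crh-1 null (adjusted p = 0.00133), but 1.02 for tax-6 null (adjusted p = 9.07e-05) and 1.05 for aak-2 o/e (adjusted p = 0.000108). The median changes of the 3 lists were -0.08, -0.15 and -0.10 in crh-1 null, -0.15, -0.25 and -0.08 in tax-6 null and 0.05, 0.23 and -0.06 in aak-2 o/e. With tax-6 null replicate 1 left out, the medians in tax-6 null were -0.01, -0.05 and -0.02. The calls in tax-6 null were then 11 (5 higher, 6 lower), 4 (2 each way) and 13 (8 higher, 5 lower), and those for aak-2 o/e were 13 (5 higher, 8 lower), 7 (5 higher, 2 lower) and 12 (6 each way). Among the genes named, the call of mus-81 ended without WT replicate 2 or tax-6 null replicate 2 or 3 (adjusted p = 0.0757, 0.0528 and 0.0609), that of dsb-1 without WT replicate 2 (0.0515) and that of scc-1 in tax-6 null without WT replicate 1 (0.0731). That of plk-2 ended with probe sets of the suffix _s or _x left out (0.155). With any 1 array left out, the other meiotic genes gave 3 to 11 calls in tax-6 null and 2 to 13 for aak-2 o/e, with the lowest counts without WT arrays.

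Most sperm genes rose in aak-2 o/e, while oocyte and eggshell genes rose in that strain as well as in tax-6 null and some fell in crh-1 null. Of 42 sperm genes, 39 were called higher in aak-2 o/e (median 0.94) and 0 lower, 15 were lower in tax-6 null and 0 higher, and 0 were called in crh-1 null (7 at an unadjusted p under 0.05 by limma). Many sperm genes belong to near-identical families, and with probe sets of the suffix _s or _x left out 11 of 13 were called higher in aak-2 o/e. Of 27 oocyte and eggshell genes, 20 were higher in tax-6 null (median 0.71), 16 were higher in aak-2 o/e (median 0.61) and 11 were lower in crh-1 null (median -0.36). Among them the eggshell gene perm-4 fell by 2.17 in crh-1 null (adjusted p = 2.85e-05) and rose by 2.61 in tax-6 null, and by 2.31 with aak-2 o/e (adjusted p = 4.57e-06 and 1.89e-05). On tax-6 null replicate 1 the members and the other meiotic, germ granule and regulator genes lay at medians of -0.52, -0.36, -0.49 and -0.33 relative to the WT mean, while sperm genes lay at 0.11 and oocyte and eggshell genes at 0.81, beside 0.68 and 0.73 on the strain's other arrays for the last. Body wall muscle and intestine genes lay at -0.45 and -0.30 on that array, and neuron genes at 0.25. The stage genes lay lowest of these lists there, at -0.76, beside -0.32 and -0.15 on the strain's other arrays. Of the markers of other tissues, 0 of 12 somatic gonad, 2 of 27 muscle, 3 of 22 intestine and 5 of 17 neuron genes were called in aak-2 o/e, all lower. In tax-6 null 3, 7, 15 and 9 of them were called and in crh-1 null 1, 0, 4 and 5, in the same order of tissues. Of all genes, 33.5% were called in aak-2 o/e, 45% in tax-6 null and 20.6% in crh-1 null. The 7 muscle genes called in tax-6 null were all lower, and the 3 somatic gonad genes were 2 higher and 1 lower. Of the 14 stage genes, 9 were called in crh-1 null, all lower, and 9 in aak-2 o/e (6 higher, 3 lower), beside the 11 in tax-6 null. The gamete and stage genes move with the strains beside the calls given for members, and their part in those calls was not tested.

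**Figure D4:**
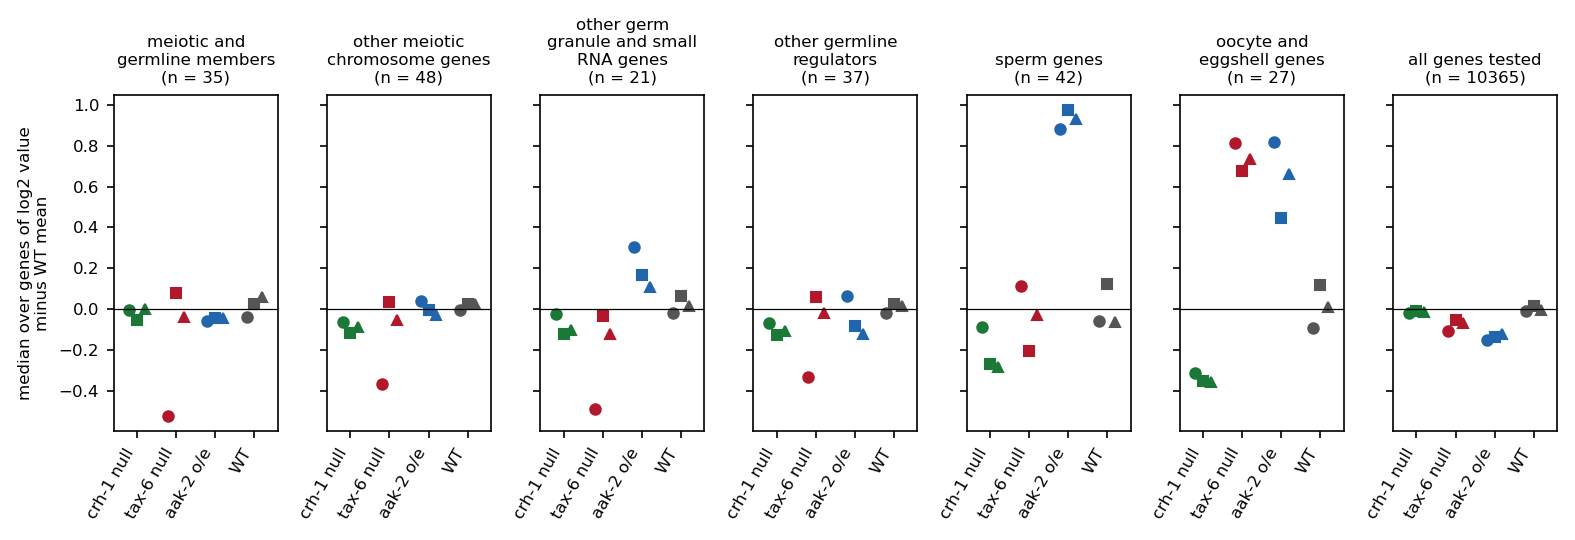
Median over the genes of a list of the log2 value minus the WT mean, on each array (circles, squares and triangles are replicates 1, 2 and 3), for members, 5 other germline lists and all genes tested. tax-6 null replicate 1 is lowest at -0.52 for members, whereas the oocyte and eggshell genes are high in tax-6 null as well as aak-2 o/e and the sperm genes in aak-2 o/e alone.

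**Figure D5:**
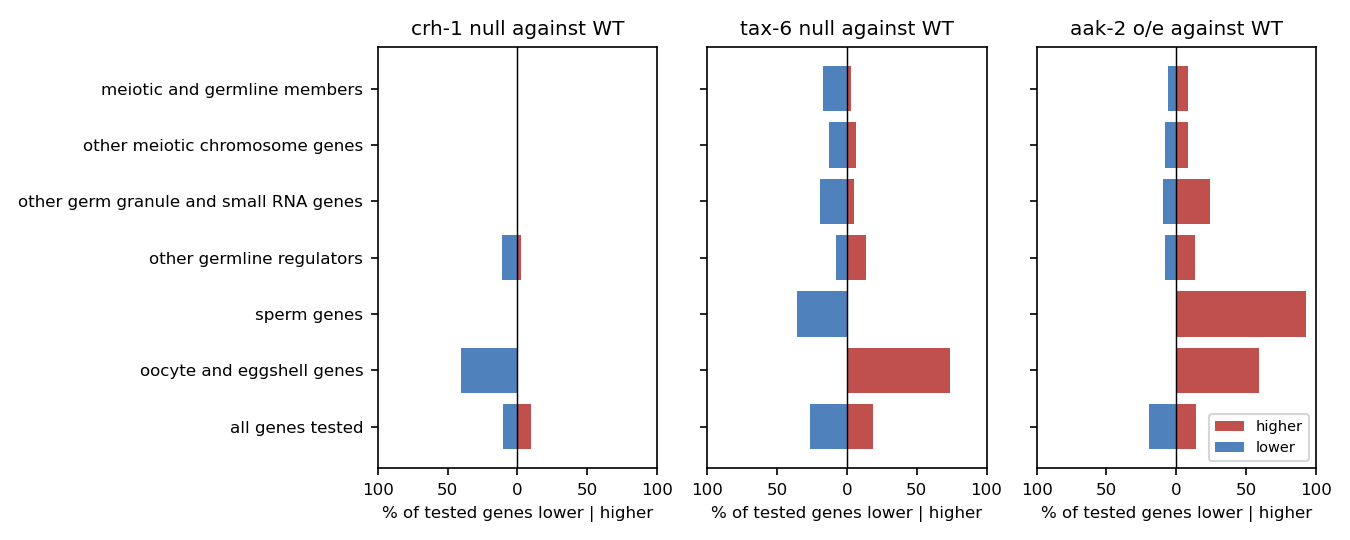
Percent of tested genes called lower (left of 0) and higher (right of 0) against WT in each strain, for members, 5 other germline lists and all genes tested. Members have 0 calls in crh-1 null, and sperm genes have 39 of 42 called higher in aak-2 o/e.

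The positions of the members, which played no part in the choice of the list, were unevenly spread over the chromosomes of WBcel235. Of the 36 measured, 8 lie on chromosome I, 5 on II, 4 on III, 11 on IV, 8 on V and 0 on X, which carries 13.8% of the genes on the array. Besides the pairing genes, pgl-1 and him-3 are neighbours on IV, and fbf-1 and fbf-2 lie on II with 1 gene between them. The neighbours pgl-1 and him-3 had changes of -0.50 and -0.07 in tax-6 null and 0.14 and -0.07 in aak-2 o/e, with him-3 not called in either. Of the 35 tested members 14 were measured with a probe set of the suffix _s or _x, which can bind transcripts of related genes. These include syp-2, rad-51, brc-1, brd-1, pgl-1, glh-1 and glh-4 among the members called, and the glh genes form 1 family, so their values are uncertain as those of single genes.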

How the data were processed

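RNA of 12 pools was hybridised to Affymetrix arrays. The authors deposited log2 values for 22625 probe sets, for which the submitters' processing notes name GCOS 1.4 and GCRMA. No source used here gives a genome build or the GCRMA settings. GCRMA removes background and scales arrays to each other, and 29.8% of values lay within 0.1 of the lowest, so changes of dim genes are compressed. Array precision is limited by their number.

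Probe sets took their gene from the platform annotation, and older symbols were replaced by those of the same gene ID in WBcel235 (20766 had 1 symbol, 887 several, 895 none and 77 were controls). Control probe sets and those without a log2 value of at least 4 on 3 or more arrays were left out, which left 13396. limma 3.58.1 in R 4.3.3 fitted 1 mean per strain to all 12 arrays (8 residual and 3.63 prior degrees of freedom), with 6 two-sided contrasts and Benjamini-Hochberg adjustment over all 13396 at a threshold of 0.05. Scan dates and harvest times were not analysed here, so the replicate number was the only batch tested. The procedure was tested on simulated data with independent noise and the same spread in all strains. That test does not cover an array on which many genes shift together, or strains of unequal spread.

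The members and lists were chosen with earlier results of these data known. Array by array values were printed by rule for the 12 members with the smallest adjusted p against WT, and from each other list the 3 genes with the smallest adjusted p per comparison could be named. Other members with values on single arrays were chosen after those were seen. Lists of sperm, oocyte and eggshell, somatic gonad, muscle, intestine, neuron and stage genes served as markers of other cell types. Same-numbered arrays were checked for pairing: 1 of 18 pairs had a correlation of deviations over 0.1 (-0.249 to 0.138). Arrays with different numbers were not compared, so this check cannot settle whether the numbers pair the samples. Alternatives were other filters, normalizations, weights, priors, probe set rules, a block, a stricter threshold and each array left out.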

Additional observations from a re-analysis of the deposited data

How the results depend on the processing

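The count of members called in crh-1 null against WT was 0 under all alternatives. In tax-6 null against WT, where it was 7, it was 2 with only the 2 strains, 4 without probe sets of the suffix _s or _x, 0 at a threshold of 0.01 and 3 to 8 with 1 array left out. In aak-2 o/e against WT, where it was 5, it was 1 with no filter, 3 without _s or _x probe sets, 0 at 0.01 and 0 to 8 with 1 array left out. For tax-6 null set against aak-2 o/e, where it was 8, it was 4 with only the 2 strains, 5 without _s or _x probe sets, 4 at 0.01 and 5 to 10 with 1 array left out. Between crh-1 null and tax-6 null, where it was 4, it was 2 with no filter, with only the 2 strains and at 0.01, 7 with arrays centred on their medians, 8 with array weights and 2 to 6 with 1 array left out. Between crh-1 null and aak-2 o/e, where it was 4, it was 2 with no filter, 7 with only the 2 strains, 8 with array weights, 0 at 0.01 and 1 to 8 with 1 array left out. Over members, comparisons and settings, 136 values lost a call, 78 gained one and 4531 stayed on their side of the threshold, called or not. One was reversed: zim-2 in tax-6 null minus aak-2 o/e, at -0.03 with all arrays and 0.38 (adjusted p = 0.0111, limma) without tax-6 null replicate 1, in a range of -0.25 to 0.38 with 1 array left out. The causes of the lost and gained calls were not tested. Apart from leaving out tax-6 null replicate 1, the share of all genes called under each setting is not set beside the member counts. A lower count of members is therefore not read as particular to them. With the replicate block the counts in the comparisons above were 0, 7, 5, 7, 3 and 4, in that order. The msh-5 calls between tax-6 null and either other altered strain ended there (adjusted p = 0.0575 and 0.0561, limma). Whether the replicate numbers pair the samples was not settled. The no-filter setting takes the median over more genes, the dim ones included. In aak-2 o/e against WT that median lay 0.147 above the one over the 10365 genes tested.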
